A study of Mus musculus with 16 samples.

Results

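The 9 genes described here make pulmonary surfactant or the lamellar body that stores it, and they were chosen by name: Sftpa1, Sftpb, Sftpc, Sftpd, Abca3, Lamp3, Napsa, Lpcat1 and Slc34a2. All 9 were found among the 25054 gene entries measured in the 16 libraries of the series. The libraries were made from newborn pups on a C57BL/6J background whose parents, both heterozygous for a null allele of Man1a2 (a Golgi mannosidase that trims N-glycans), drank N-acetyl cysteine (NAC), an antioxidant and glutathione precursor, at 1 g/kg body weight or water as placebo. Exposure ran from before breeding until delivery, and pups were followed for 24 h after birth. Tissue was taken at death or, from survivors, 24 h after birth. The 4 pup groups were live wild-type (WT) and heterozygous (Het) pups and, among those that died, Het and Null pups, and all of them, controls included, came from heterozygous parents given NAC or placebo. RNA was pooled over 3 experiments, or 2 for dead Het pups, so that each pup group, treatment and tissue (lung or liver) is 1 library, and a group as labelled has no replicate.

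Surfactant is a film of phospholipid and protein that lowers surface tension at the air-liquid interface, and alveolar type 2 cells of the lung make it around birth. The hydrophobic proteins SP-B (Sftpb) and SP-C (Sftpc) spread the lipid, and the collectins SP-A (Sftpa1) and SP-D (Sftpd) bind sugars on microbes. ABCA3 moves phospholipid into the lamellar body, LAMP3 lies in its membrane, the aspartic protease NAPSA cleaves the SP-B precursor, LPCAT1 remakes phosphatidylcholine with saturated chains, and the sodium-phosphate cotransporter encoded by Slc34a2 takes up phosphate in type 2 cells. Loss of SP-B or ABCA3 causes respiratory failure at birth.

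Levels are given as CPM, the count of a gene after the total of its library is set to 1000000. Libraries held 7236906 to 16107764 counts. They were sorted by content with a rule on 2 genes, Sftpc and the liver gene Alb (albumin). A library was lung-content with at least 1000 CPM of Sftpc and under 1000 CPM of Alb, liver-content with at least 50000 CPM of Alb, and mixed otherwise. This gave 7 lung-content, 8 liver-content and 1 mixed library. The content went against the tissue label in 8 of these 15 libraries. The 7 lung-content libraries were labelled live WT NAC lung, live WT placebo liver, live Het NAC lung, live Het placebo liver, dead Het NAC liver, dead Het placebo lung and dead Null placebo liver. The mixed library was labelled dead Null placebo lung, and both NAC libraries of dead Null pups were liver-content. Whether the tissue, the treatment or the pup group of such a label is off cannot be told apart from these data, so every direction below compares libraries by the labels they carry. Within the lung content each pup group and treatment has 1 library, called here by those names. Nearest to the limits were 4446 CPM of Sftpc and 135 CPM of Alb in the lung-content class and 51003 CPM of Alb in the liver-content class. The markers of lung other than the members, 10 genes such as Ager and Scgb1a1, summed to 3550 to 6856 CPM in the lung-content and 46.7 to 159 CPM in the liver-content libraries. The ribosomal RNA symbol Rn45s took 4.05 to 26.2% of counts in the lung-content libraries and 0.845 to 6.29% in the liver-content ones. Man1a2 had 70.0 CPM in the dead Null placebo library labelled liver, against 41.0 to 121 CPM over the lung-content class. Its counts cover the whole gene, so they do not check the null allele, which lacks a single exon.

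RefSeq's promoter table (GRCm38.p6, 250 bases before to 50 after each start) held 6 of the 9 members, all but Sftpc, Sftpd and Napsa. Of these, 4 are shown, 5′ to 3′ along the strand of the gene. Sftpb and Sftpa1 were among the members nearly absent from liver content, and Slc34a2 and Lpcat1 were the members that differed between the treatments below. Capitals mark CTCAAG or its reverse complement CTTGAG, letters found in sites of the lung and thyroid factor NKX2-1. Sftpb lies at chr6:72304360-72304659, Sftpa1 at chr14:41131538-41131837, Slc34a2 at chr5:53049103-53049402 and Lpcat1 at chr13:73466981-73467280, each on the plus strand.
Sftpb: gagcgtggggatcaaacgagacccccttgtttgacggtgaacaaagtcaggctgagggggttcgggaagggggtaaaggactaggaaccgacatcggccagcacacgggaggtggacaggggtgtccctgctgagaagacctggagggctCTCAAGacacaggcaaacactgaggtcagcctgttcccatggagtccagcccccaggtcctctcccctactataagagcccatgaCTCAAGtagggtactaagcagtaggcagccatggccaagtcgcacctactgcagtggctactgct
Sftpa1: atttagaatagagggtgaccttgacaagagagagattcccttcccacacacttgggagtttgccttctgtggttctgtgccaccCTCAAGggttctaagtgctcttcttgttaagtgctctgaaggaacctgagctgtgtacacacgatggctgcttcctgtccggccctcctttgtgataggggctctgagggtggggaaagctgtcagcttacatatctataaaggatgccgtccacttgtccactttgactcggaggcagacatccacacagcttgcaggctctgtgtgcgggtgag
Slc34a2: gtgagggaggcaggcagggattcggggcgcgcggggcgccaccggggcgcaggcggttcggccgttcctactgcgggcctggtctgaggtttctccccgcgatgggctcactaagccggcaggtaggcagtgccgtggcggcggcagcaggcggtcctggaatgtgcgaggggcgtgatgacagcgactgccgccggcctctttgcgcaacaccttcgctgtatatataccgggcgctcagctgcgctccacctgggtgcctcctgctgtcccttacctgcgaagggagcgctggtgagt
Lpcat1: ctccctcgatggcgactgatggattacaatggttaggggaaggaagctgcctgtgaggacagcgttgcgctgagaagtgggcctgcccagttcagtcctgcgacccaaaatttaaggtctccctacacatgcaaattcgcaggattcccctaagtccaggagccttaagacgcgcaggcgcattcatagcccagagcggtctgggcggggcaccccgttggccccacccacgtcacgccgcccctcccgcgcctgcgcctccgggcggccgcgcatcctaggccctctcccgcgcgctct

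The motif occurred 2 times in the Sftpb promoter and 1 time in that of Sftpa1, and in none of the promoters of Slc34a2, Lpcat1, Abca3 and Lamp3. Among all 32851 promoters of this length, 15.9% held it at least 1 time and 1.4% at least 2 times. The promoters of Slc34a2, Lpcat1 and Abca3 were rich in CpG, with 30, 25 and 29 CpG and an observed over expected ratio of 0.862, 0.823 and 0.798. Those of Sftpb, Sftpa1 and Lamp3 were poor in it, with 8, 5 and 0 CpG, and the median ratio over all promoters was 0.384. The letters TATAA, searched on both strands, stood 1 time each in the promoters of Sftpb and Sftpa1 and in 24.9% of all promoters. These matches describe the sequence only.

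The members were among the abundant transcripts of the lung-content libraries, where the 9 together took 0.855 to 2.22% of all counts. Sftpc had the most. Over the 7 libraries it had a lowest value of 4446, a median of 9161 and a highest of 11758 raw CPM, with the lowest in the live Het NAC and the highest in the live WT placebo library. Slc34a2 had a median of 2025 CPM (536 to 2907) and Sftpb of 1873 CPM (1357 to 3376). Sftpa1 followed with a median of 1486 CPM (627 to 2438). The other members were lower, with medians of 694 CPM for Sftpd, 495 for Abca3, 448 for Napsa, 422 for Lamp3 and 186 for Lpcat1. Even the lowest value of a member in this class, 87.9 CPM of Lpcat1 in the live Het NAC library, rested on 636 counts (exact Poisson 95% interval 81.2 to 95.0 CPM, which covers counting error only).

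Genes can be compared with each other only per length, and CPM was divided by the kilobases of exon in GENCODE (GRCm38). On this scale of CPM per kilobase the order of the medians was Sftpc (8859), Sftpb (952), Sftpa1 (520), Slc34a2 (404), Sftpd (287), Napsa (169), Lamp3 (126), Abca3 (52.8) and Lpcat1 (40.2). Only the first step was clear of the spread, with Sftpc at 4300 or more and Sftpb at no more than 1715 CPM per kilobase. Every later pair of neighbours overlapped in range. Within single libraries Sftpb stood above Sftpa1, Sftpd above Napsa and Lamp3 above Abca3 in 7 of 7, whereas Slc34a2 stood above Sftpd in 4 of 7 and Abca3 above Lpcat1 in 3 of 7. An exon of Abca3 overlaps the antisense gene D330041H03Rik and one of Napsa overlaps Gm15396 on the other strand, and the use of strand in counting is not given in the sources used here, so their reads may not be fully apart. No exon of the other 7 members overlaps another gene of that annotation.

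The 8 liver-content libraries split the members into 2 kinds. Abca3 (32.6 to 55.0 CPM), Lpcat1 (10.8 to 27.3) and Napsa (14.9 to 23.0) were detected in all 8, with at least 161 counts each. Sftpa1, Sftpb, Sftpc, Sftpd and Slc34a2 had at most 3.24 CPM there. Lamp3 had 0 to 2 counts in each of the 8, at or under the floor of 3 counts, which corresponds to 0.186 to 0.213 CPM. The 9 members summed to 66.0 to 103 CPM in liver content against 8551 to 22243 CPM in lung content. Since Sftpc and Alb define the classes, these differences describe the rule and carry no test.

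**Figure D1:**
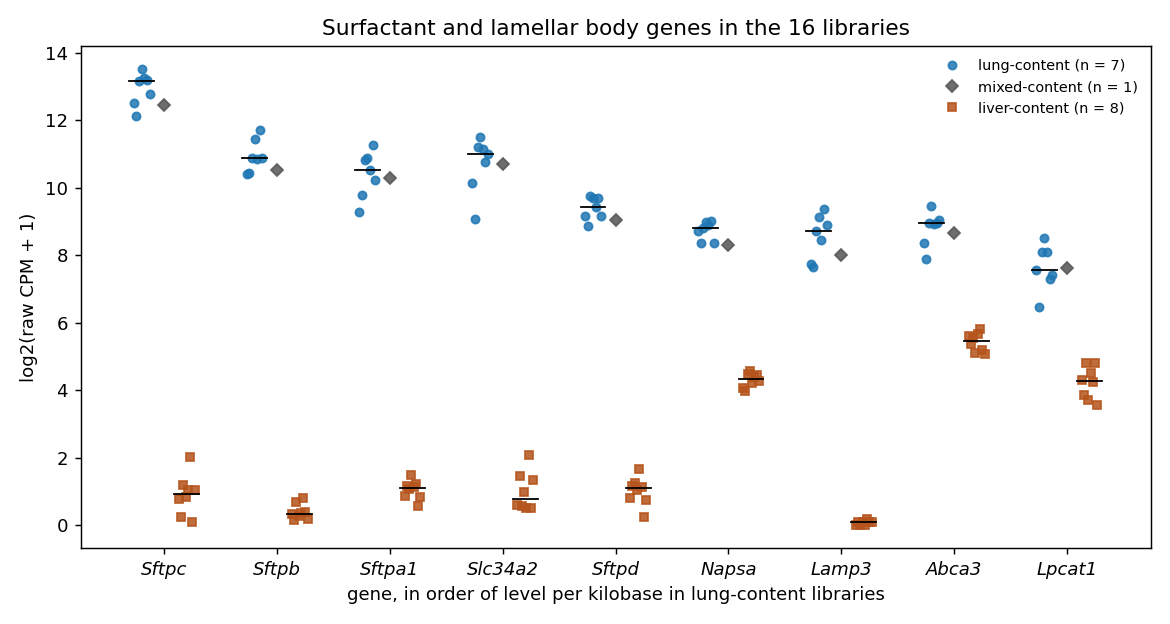
Level of each of the 9 genes in the 16 libraries, as log2(raw CPM + 1) against gene, with 1 point per library (circles, 7 lung-content libraries; diamonds, the mixed library; squares, 8 liver-content libraries) and a bar at each class median. Sftpc is the highest in lung content, and in liver content Abca3, Lpcat1 and Napsa stand at 10.8 CPM or more in every library while the other 6 genes stay at 3.24 CPM or less.

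The 22 relatives of the members showed every pattern. Of these, 6 were higher in lung content without overlap (Colec12, Itm2c, Abca2, Abca4, Lamp1 and Lpcat4), 6 were higher in liver content without overlap and 10 overlapped. The collectin gene Mbl1, which encodes a mannose-binding lectin of serum, lies on chromosome 14 between Sftpa1 (41131782 to 41136452) and Sftpd (41172214 to 41185149), with 15005 bases to the first and 12612 to the second (GRCm38). It had 18.3 to 60.7 CPM in liver content and 0.346 to 1.81 CPM in lung content, while its neighbours were abundant in lung content. The lysosomal relatives and Itm2b differed less between contents than the members. Psap, a precursor that shares the saposin fold with SP-B, had medians of 525 CPM in lung and 544 CPM in liver content. The lysosomal protease Ctsd had 459 and 389 CPM, the lysosomal membrane gene Lamp1 579 and 330 CPM, and Itm2b, which shares the BRICHOS domain with SP-C, 807 and 592 CPM. Of these, Lamp1 did not overlap between the contents (468 to 666 CPM in lung and 259 to 420 CPM in liver), and the others did. Lpcat3, which remodels phospholipid with polyunsaturated chains, was the higher in liver content, with 51.6 and 87.7 CPM. No relative of Slc34a2 stood in for it, since Slc34a1 had at most 0.135 CPM and Slc34a3 no count in any library of either content.

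The mixed library, labelled dead Null placebo lung, held the members close to the lung-content level. Sftpc had 5553 CPM, Slc34a2 1664, Sftpb 1460 and Sftpa1 1261 CPM. Sftpd had 532 CPM, Abca3 404, Napsa 313, Lamp3 256 and Lpcat1 196 CPM. As a percent of the median of the lung-content libraries, the 9 ranged from 60.6% (Sftpc) to 105% (Lpcat1) with a median of 78.0%, and the 10 other lung markers had a median of 68.9%. The 12 liver markers stood at 10.4 to 57.2% of the liver-content median, with a median of 17.1%.

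With the labels taken as given, NAC was compared with placebo in the libraries labelled lung and in those labelled liver, with pup group as a block (edgeR quasi-likelihood test, Benjamini-Hochberg adjusted p under 0.05). No member passed in either, and neither did any of the 14086 and 14266 genes tested (0.0% called in both, where 312 and 63 genes had an unadjusted p under 0.05, and DESeq2 called 28 and 722). Labelled lung against labelled liver also gave no call among 14184 genes (0.0%; 7 at an unadjusted p under 0.05, 0 by DESeq2). Pair by pair, all 9 members had the greater level under NAC for live WT lung, live Het lung and dead Het liver, by 1.85 (Lpcat1 in dead Het liver) or more on the log2 scale. All 9 were lower with NAC in the other 5 labelled pairs, by 2.46 (Abca3 in live Het liver) or more. For Slc34a2 the log2 difference, NAC minus placebo, was 10.43 in live WT lung and -11.66 in live WT liver. A log2 difference of at least 1 in the same direction was reached by 27.7, 28.8 and 26.6% of genes in the first 3 pairs and by 25.9% (live WT liver), 25.5% (live Het liver), 26.2% (dead Het lung), 25.0% (dead Null lung) and 27.0% (dead Null liver) in the other 5. In each of the 8 pairs 1 library is liver-content and the other is not, so treatment and content cannot be told apart there.

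Among the 7 lung-content libraries, NAC was compared with placebo within the live WT, live Het and dead Het pairs. The dead Null placebo library, alone in its group, was fitted by its own term and added nothing to this difference or its residual spread. Counts were scaled by edgeR's TMM factors over these libraries, and all levels from here on are TMM-scaled CPM. The fit has 2 residual degrees of freedom and 6.81 prior degrees of freedom borrowed from the spread of all genes. Each pup group and treatment is 1 pooled library, so the residual part is how far the pairs disagree. The p-values and intervals rest mostly on the borrowed part and do not measure spread between replicate pools. The members ran lower rather than higher with NAC: 7 of the 9 had a negative log2 difference, their median was -0.35, and the median of all genes was -0.03. Of these, 2 members fell and passed the test, Slc34a2 and Lpcat1, and none rose. That share is near the background, since 25.6% of the 13990 genes tested were called (14.4% higher and 11.3% lower with NAC, and 39.6% at an unadjusted p under 0.05). In bulk tissue, fewer type 2 cells and less RNA per cell cannot be told apart.

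Slc34a2, the phosphate transporter, had 2285 and 2163 CPM in the placebo libraries of live WT and live Het pups and 2234 and 2217 CPM in those of dead Het and dead Null pups. With NAC it had 1119 CPM in live WT, 690.1 in live Het and 1731 in dead Het pups. The treatments did not overlap, and the 4 placebo libraries lay within 122 CPM of each other while the 3 NAC libraries spread over 1041 CPM. The log2 difference was -1.01 (SE 0.22, 95% interval -1.51 to -0.52), with an adjusted p of 0.0131. It was lower in 3 of 3 pairs, with ratios of NAC to placebo of 0.490, 0.319 and 0.775. The call was lost without the live Het NAC library (-0.70, adjusted p 0.0645), without the live Het placebo library (-0.70, adjusted p 0.0771) and with the mixed library added (-1.02, adjusted p 0.0609).

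Lpcat1, the acyltransferase that makes saturated phosphatidylcholine, had 286, 264 and 258 CPM with placebo in live WT, live Het and dead Het pups and 187 CPM in dead Null pups. With NAC it had 186 CPM in live WT, 113 in live Het and 155 in dead Het pups. All 3 NAC libraries lay below the 4 placebo libraries, and the highest of them was 1.496 CPM below the dead Null placebo library. The log2 difference was -0.86 (SE 0.16, 95% interval -1.22 to -0.49), with an adjusted p of 0.00825 and ratios of 0.651, 0.429 and 0.601 in the 3 pairs. Without the live Het placebo library the adjusted p was 0.0587 (-0.68).

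**Figure D2:**
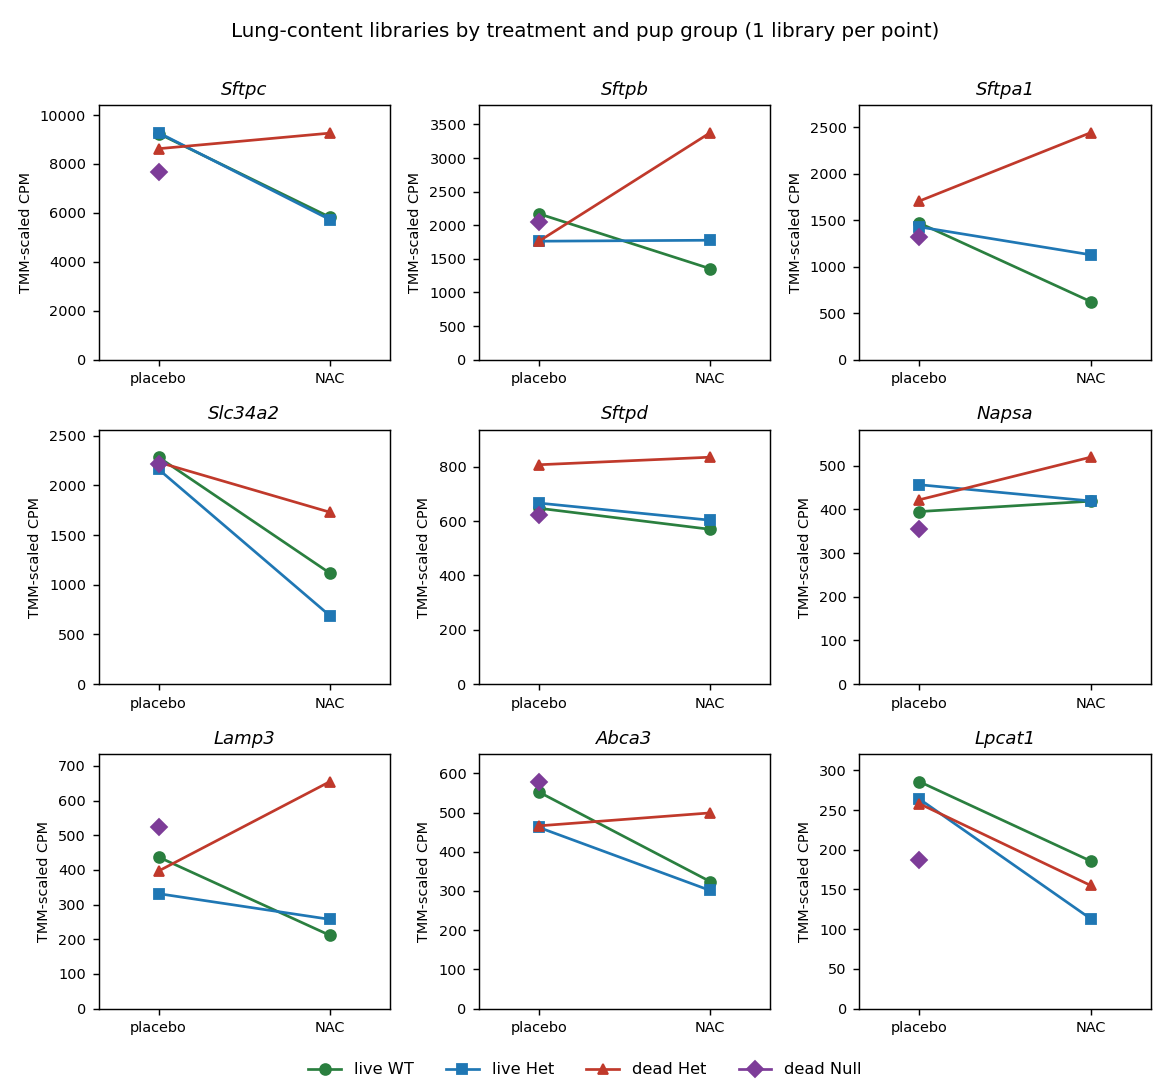
TMM-scaled CPM of the 9 genes (vertical axis from 0, 1 panel per gene) by treatment in the 7 lung-content libraries, with 1 point per library and a line joining placebo to NAC within live WT, live Het and dead Het pups; dead Null pups have a placebo point alone. Slc34a2 and Lpcat1 are lower with NAC in all 3 pairs, whereas Sftpa1, Sftpb and Lamp3 are higher with NAC in the dead Het pair.

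For Sftpc and Abca3 the pairs of live pups and the dead Het pair stood apart. Sftpc, the SP-C precursor, had 9241 and 9278 CPM with placebo and 5829 and 5729 CPM with NAC in live WT and live Het pups. In dead Het pups it had 8624 with placebo and 9260.1 CPM with NAC, and the dead Null placebo library held 7691 CPM. The difference over the 3 pairs was -0.42 (SE 0.17, 95% interval -0.80 to -0.04), with an unadjusted p of 0.033 and an adjusted p of 0.0942. Without the filter on low counts Sftpc was called lower (-0.41, adjusted p 0.0483). Sftpc belongs to the rule that chose these libraries, so here and below its tests are not independent of that choice. Abca3, the lipid transporter, had 552 and 462 CPM with placebo and 324 and 301 CPM with NAC in the live pairs, and 466 and 499 CPM in the dead Het pair. Its difference was -0.43 (SE 0.18, 95% interval -0.84 to -0.02, adjusted p 0.115).

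The other 5 members did not pass, and their intervals spanned -0.98 to 0.67 on the log2 scale. Sftpa1 had 1468, 1427 and 1705 CPM with placebo and 625, 1127 and 2439 CPM with NAC in live WT, live Het and dead Het pups (-0.35, adjusted p 0.369). Lamp3 had 437, 332 and 397 CPM with placebo and 212, 258 and 655 CPM with NAC (-0.23, adjusted p 0.569). Both were lower with NAC in the live pairs and higher in the dead Het pair. Sftpb, the SP-B precursor, had 2170.4, 1763 and 1763 CPM with placebo and 1354, 1777 and 3377 CPM with NAC (0.09, adjusted p 0.823). Sftpd and Napsa varied least, with a coefficient of variation over the 7 libraries of 15.1 and 12.0%, against a median of 19.7% over the 9625 genes that averaged 10 CPM or more. Their differences were -0.09 (adjusted p 0.623) and 0.09 (adjusted p 0.672).

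With live pups alone, an alternative added after seeing the data that leaves 4 libraries and 1 residual degree of freedom, 6 of the 9 members were called lower with NAC, at a background of 30.0% of 13987 genes. They were Slc34a2 (-1.34, adjusted p 1.12e-05), Lpcat1 (-0.91, adjusted p 0.00144), Sftpa1 (-0.78, adjusted p 0.00393), Lamp3 (-0.70, adjusted p 0.00808), Abca3 (-0.69, adjusted p 0.00362) and Sftpc (-0.68, adjusted p 0.000219). Leaving out either library of the dead Het pair gave the same 6 calls. The live WT and live Het pairs alone carry the difference there too, so this is no separate check. In the live pairs every NAC library is labelled lung and every placebo library liver, and in the dead Het pair the reverse holds, so among live pups treatment and labelled tissue cannot be told apart. With the labelled tissue in place of treatment in the fit of all 7 libraries, also added after seeing the data, no member and none of the 13990 genes passed (0.0%; 160 genes, 1.14%, at an unadjusted p under 0.05). Lamp3 was the member with an unadjusted p under 0.05 in that fit. All 9 members were nonetheless lower in labelled lung than in labelled liver, from -0.78 (Slc34a2) to -0.11 (Napsa). Their median was -0.50, against -0.01 for all genes. The biological coefficient of variation, the spread between libraries beyond counting error, was 0.366 in that fit and 0.183 in the NAC fit. The lack of calls therefore does not set labelled tissue apart from treatment.

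Levels of other cell type markers and of Rn45s stood as follows beside the treatments. The highest Rn45s share, 26.2%, belonged to the live Het NAC library, which also had the lowest Slc34a2 and Lpcat1. The 5 general epithelial genes (Epcam, Cdh1, Krt8, Krt18 and Krt19) were all called higher with NAC, and their sum was 1286 to 1843 CPM in the NAC and 726 to 1444 CPM in the placebo libraries. Of 8 alveolar type 1 genes, 1 was called higher and 2 lower, and their sum was 3069 to 4516 CPM with NAC against 4491 to 5325 CPM with placebo. The liver genes summed to 922 to 1454 CPM with NAC and 230 to 968 CPM with placebo, and 4 of the 10 tested were called higher, Alb among them (1.59, adjusted p 0.0222). Alb belongs to the rule that chose these libraries, and the rule kept out the mixed placebo library, with 9280 raw CPM of Alb. Its test is therefore not independent of that choice. A single gene, Trf (transferrin), made up 53.4 to 95.5% of that sum, and without it the liver genes had 65.4 to 244 CPM with NAC and 22.2 to 235 CPM with placebo, which overlapped. The endothelial genes summed to 2108 to 2275 CPM with NAC and 1624 to 2047 CPM with placebo, without overlap, and Pecam1 (0.44, adjusted p 0.0485) and Cdh5 (0.59, adjusted p 0.0327) were called higher. Of 5 leukocyte genes 1 was called lower, Cd68 (-0.78, adjusted p 0.0493), and their sum was 72.8 to 142 CPM with NAC and 103 to 176 CPM with placebo. The erythroid sums with NAC, 13430 to 23247 CPM, lay within the placebo range of 9390.3 to 24390.2 CPM. The part of these contents in the members' differences was not tested. Slc34a2 and Lpcat1 kept their direction and call when Rn45s was left out (-1.01, adjusted p 0.0102, and -0.85, adjusted p 0.00709). Scaling by library size alone moved the median of all genes by -0.28, turned the share of calls that were higher from 56.1 to 22.5%, and left both genes called lower.

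Dead and live pups were compared in the same fit, with the mean of the dead Het and dead Null groups set against the mean of the live groups. Tissue of dead pups was taken at death and that of live pups 24 h after birth. Survival and age at harvest therefore cannot be told apart in any contrast of dead with live pups here. No member passed, and 7 of 13990 genes did, all higher in dead pups (0.05%; 1141 genes, 8.16%, had an unadjusted p under 0.05). Of the members, 7 had a positive difference and their median was 0.31, against -0.01 for all genes. Lamp3, the lamellar body membrane protein, had the largest, at 0.74 (SE 0.26, 95% interval 0.14 to 1.34, unadjusted p 0.0208, adjusted p 0.471). Its values were 655, 397 and 523 CPM in dead and 212, 437, 258 and 332 CPM in live pups, which overlapped. Sftpa1 followed with 0.48 (95% interval -0.10 to 1.07), Sftpb with 0.39 (-0.16 to 0.94), Slc34a2 with 0.33 (-0.14 to 0.79) and Abca3 with 0.31 (-0.09 to 0.71). Sftpd had 0.18, Sftpc 0.08, Napsa -0.02 and Lpcat1 -0.27, with intervals that included 0. The erythroid genes summed to 19509 to 24390.2 CPM in dead and 9390.3 to 16393 CPM in live pups, without overlap, and the part of this in the differences was not tested. Without the dead Het placebo library, which leaves the NAC library alone for dead Het pups, Lamp3 was 0.96, Sftpa1 0.68 and Sftpb 0.59. Without the dead Het NAC library, Lamp3 was 0.25, Sftpa1 0.033, Sftpb -0.049 and Slc34a2 -0.0060. Member calls are not given for either omission, since each leaves a single dead Het library.

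Within 1 genotype, dead Het against live Het gave no call among the members or the 13990 genes (0.0%; 505 genes, 3.61%, at an unadjusted p under 0.05, and 22 by DESeq2). All 9 members had a positive difference with a median of 0.39, against 0.00 for all genes. Without the dead Het NAC library 4 of them turned negative, Sftpb (-0.18), Sftpc (-0.10), Napsa (-0.063) and Abca3 (-0.026). Other lists moved further, though none of their genes was called: the liver genes had a median of -2.54 (2 of 10 positive), the heart muscle genes of 1.07 (4 of 4 positive) and the erythroid genes of 0.84 (7 of 7 positive), and the part of these contents was not tested. Lamp3 (0.88, unadjusted p 0.0317), Slc34a2 (0.69, 0.0298) and Sftpd (0.37, 0.0448) were the 3 with an unadjusted p under 0.05, each with an adjusted p of 0.932. Both dead Het libraries of Sftpd, with 835 and 807 CPM, lay above all 5 others, which reached 666 CPM, and so did those of Sftpa1, with 2439 and 1705 CPM against at most 1468 CPM. Without the dead Het placebo library, which leaves the NAC library alone for dead Het pups, Lamp3 was 1.503, Sftpa1 1.31, Slc34a2 1.16, Sftpb 1.08 and Sftpc 0.68. Here too member calls are not given for either omission, since each leaves a single dead Het library.

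With every lung-content library kept, genotype comparisons gave no member call either. Live Het against live WT had member differences from -0.40 (Lpcat1) to 0.34 (Sftpa1), a median of -0.01 and no call among all genes (0.0%; 309 genes, 2.21%, at an unadjusted p under 0.05, and 6 by DESeq2). Dead Null against dead Het, which rests on the single dead Null placebo library, had member differences from -0.87 (Sftpa1) to 0.02 (Abca3), with 8 of 9 negative and a median of -0.37. There 78 genes were called (0.558%, with 0.5% higher and 0.0572% lower, and 13.3% at an unadjusted p under 0.05), none of them a member. Without the dead Het placebo library, which leaves a single library on each side, Sftpa1 was -1.66, Sftpb -1.04, Slc34a2 -0.97 and Sftpc -0.93. Without the dead Het NAC library the same differences were -0.37, 0.22, -0.0094 and -0.16, and Abca3 was 0.31. Their sizes and in part their signs thus rest on which dead Het library is kept.

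The NAC difference was also compared between dead and live pups, with status, treatment and their interaction in the fit and no pup group terms. The dead Het NAC library was thus set against the dead Het and dead Null placebo libraries together. No member passed, and 1 of 13990 genes did (0.00715%; 1549 genes, 11.1%, at an unadjusted p under 0.05). All 9 members had a positive interaction, with a median of 0.86 against -0.01 for all genes, that is, NAC minus placebo was greater in dead than in live pups. The leukocyte genes moved the same way, with 5 of 5 positive and a median of 1.36, and their sum was 98.04 and 72.8 CPM with NAC and 176 and 145 CPM with placebo in live WT and live Het pups, 142 and 120 CPM with NAC and placebo in dead Het pups and 103 CPM in dead Null pups. The mesenchymal genes had 4 of 5 positive and a median of 0.49. No gene of either list was called, and their part in the members' interaction was not tested. It was 1.42 for Sftpa1 (SE 0.47, unadjusted p 0.0165, adjusted p 0.38), 1.22 for Lamp3 (SE 0.36, unadjusted p 0.00902, adjusted p 0.379) and 1.15 for Sftpb (SE 0.38, unadjusted p 0.0159, adjusted p 0.38). For Slc34a2 it was 0.94 (95% interval -0.01 to 1.89) and for Lpcat1 0.35 (-0.60 to 1.31). The lung-content libraries of dead pups hold 1 NAC library, and its label says liver, whereas the NAC libraries of live pups are labelled lung. Survival, age at harvest and labelled tissue cannot be told apart in this contrast, and the Null genotype enters it on the placebo side alone.

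**Figure D3:**
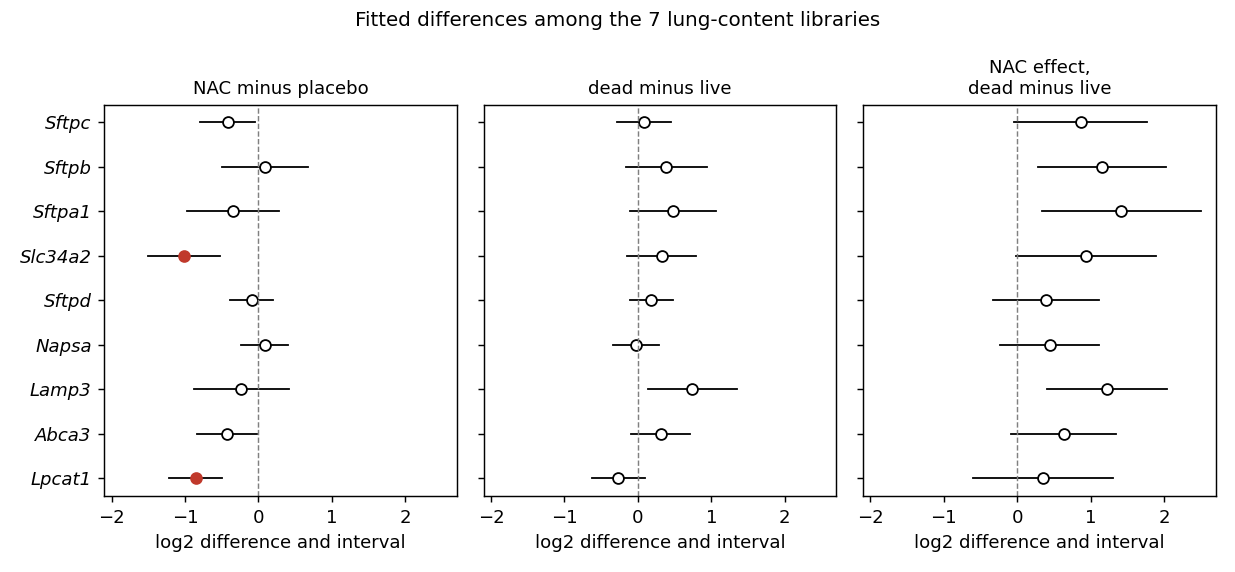
Fitted log2 differences of the 9 genes with 95% intervals among the 7 lung-content libraries, for NAC minus placebo, dead minus live, and the NAC difference in dead minus that in live pups; filled points passed the test (adjusted p under 0.05). Only Slc34a2 and Lpcat1 for NAC are filled, and the largest interaction is that of Sftpa1 at 1.42.

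The genes of the surfactant pathway outside the members were read from lists. In phospholipid synthesis, 3 of 15 genes were called higher with NAC and none lower, with a list median of 0.04, where 14.4% of all genes were called higher and 11.3% lower. Lpin1, a phosphatidate phosphatase that supplies diacylglycerol, rose by 2.96 (SE 0.22, adjusted p 0.000267), from 23.1, 14.5 and 23.1 CPM with placebo to 150, 182 and 139 CPM with NAC in live WT, live Het and dead Het pups. Chka, the choline kinase that opens phosphatidylcholine synthesis, rose by 1.23 (adjusted p 0.00232). Srebf1, a regulator of fatty acid synthesis, rose by 1.10 (adjusted p 0.00205). The dead Null placebo library stood with the NAC libraries for Lpin1 (101 CPM) and Srebf1 (147 CPM, against 162 to 187 CPM with NAC and 73.7 to 90.0 CPM in the other placebo libraries). Lpin1 was also called higher in dead Null than in dead Het pups (2.32, adjusted p 0.0279).

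Of 20 genes of protein processing, secretion and recycling, 4 were called higher and 2 lower, with a median of 0.06 and beside the same 14.4% and 11.3% of all genes. P2ry2, the purinergic receptor that triggers secretion, rose by 1.43 (adjusted p 0.00293). Prdx6, a peroxiredoxin with phospholipase activity in lamellar bodies, rose by 1.17 (adjusted p 0.00214), from 242, 280.2 and 331 CPM with placebo to 673, 586 and 654 CPM with NAC in live WT, live Het and dead Het pups, and the dead Null placebo library lay between them with 496 CPM. Nedd4l, a ubiquitin ligase that acts on the SP-C precursor, rose by 1.14 (adjusted p 0.00316), with 256 CPM in the dead Null placebo library against 202 to 247 CPM with NAC. Rab27a, a small GTPase of secretory granules, fell by 0.74 (adjusted p 0.014) and Hps5, which serves lysosome-related organelles, by 0.61 (adjusted p 0.0279). Ctsh, a protease of SP-B and SP-C processing, was the fourth that rose (0.97, adjusted p 0.00515), with 827 to 1386 CPM with NAC, 513 to 593 CPM in the placebo libraries of the 3 pairs and 1116 CPM in the dead Null placebo library.

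Among 12 transcriptional regulators 2 were called higher, Stat3 (0.73, adjusted p 0.0134) and Wwtr1 (0.65, adjusted p 0.0186), and 1 lower, beside 14.4% and 11.3% of all genes. By library size alone neither rise was called (0.44, adjusted p 0.0899, and 0.36, adjusted p 0.137). The one that fell was Etv5, an ETS factor that maintains type 2 cells, by 1.06 (adjusted p 0.00514), with 172, 184 and 165 CPM with placebo and 101, 65.5 and 85.3 CPM with NAC in live WT, live Het and dead Het pups, and 112 CPM in the dead Null placebo library. Of 10 other genes of type 2 cells 3 were called lower and none higher, with a median of -0.30 and beside 11.3% of all genes lower. They were the alarmin Il33 (-1.66, adjusted p 0.022), the calcium-binding gene S100g (-0.85, adjusted p 0.00664) and the mucin Muc1 (-0.54, adjusted p 0.0484). In the interaction of NAC with survival this list had a median of 0.95, close to the members' 0.86, with no gene called.

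Of the 22 relatives 19 were tested, and 4 were called higher and 2 lower with NAC, beside 14.4% and 11.3% of all genes. The cholesterol transporter Abca1 rose by 1.77 (adjusted p 0.00046), and it was also called higher in dead Null than in dead Het pups (2.00, adjusted p 0.0176). Lamp2 (0.64, adjusted p 0.0116) and Itm2b (0.54, adjusted p 0.0199) rose, as did Itm2c (0.47, adjusted p 0.0346), but by library size alone these 3 were 0.35 (adjusted p 0.141), 0.26 (0.281) and 0.19 (0.373) and were not called. The collectins Colec10 (-1.79, adjusted p 0.0283) and Colec12 (-0.77, adjusted p 0.023) fell. Colec10 had at most 3.46 CPM in these libraries. Psap, Ctsd, Lamp1, Lpcat3 and Mbl1 had differences from -0.05 to 0.47 and were not called. Of the 46 genes of all lists and members that were called, each counted 1 time, all kept their sign when scaled by library size alone and 29 stayed called. Epcam, Krt19, Pecam1 and Cdh5 were, beside those given above, among the genes that did not.

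**Figure D4:**
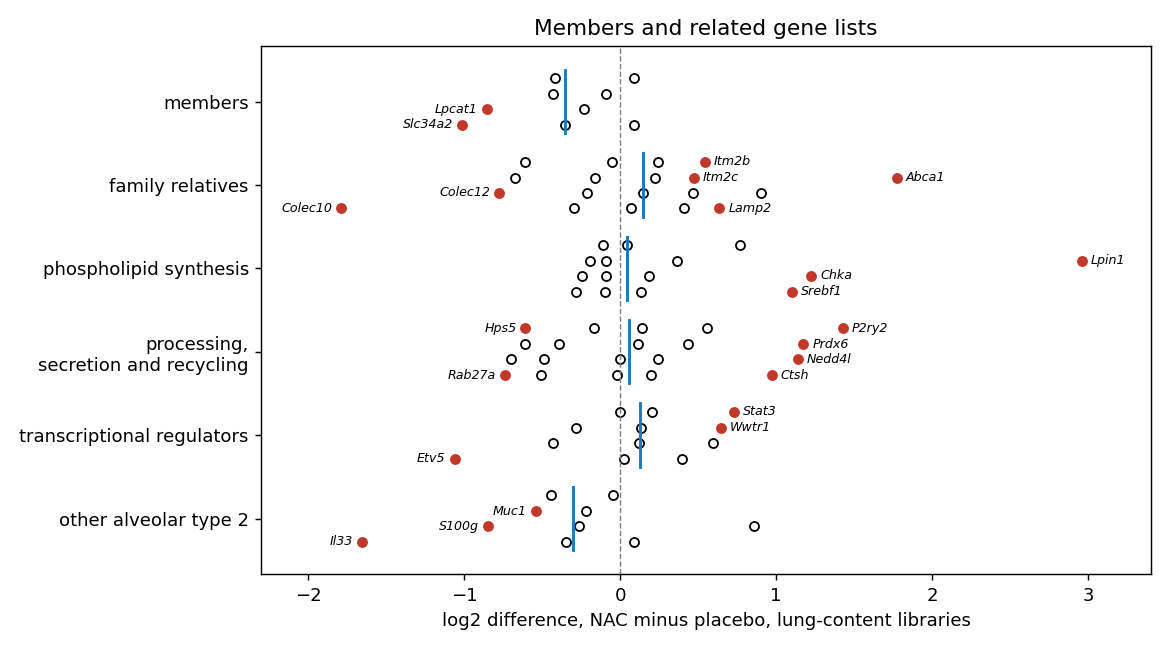
Log2 difference, NAC minus placebo, in the 7 lung-content libraries for the 9 members and 5 related lists, with 1 point per gene tested (filled and named, adjusted p under 0.05) and a bar at each list's median. Lpin1 is the highest at 2.96, and both named members lie below 0.

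Across the 7 lung-content libraries the members mostly varied together. Of the 36 pairs of members, 32 had a positive Pearson's r of log2(TMM-scaled CPM + 0.5), with a median of 0.60 and a range from -0.17 to 0.92. The highest were Abca3 with Slc34a2 (r 0.92, Spearman's rho 0.75), Sftpb with Lamp3 (0.88 and 0.86) and Sftpc with Slc34a2 (0.87 and 0.46). Napsa and Lpcat1 were the least alike (r -0.17), and 3 of the 4 negative pairs held Napsa and 2 held Lpcat1. The mean z-score of the 9 members was -1.05 in the live WT NAC and -1.01 in the live Het NAC library and 0.96 in the dead Het NAC library, with the 4 placebo libraries between 0.04 and 0.41. Among 9616 other genes that averaged 10 CPM or more, those most like this score were the kinase gene Map2k1 (r 0.99, rho 0.96), Socs5 (0.99), the lysosomal hexosaminidase gene Hexa (0.98), Ube2v2 (0.98), Ubl4a (0.98), the exocyst gene Exoc8 (0.97), Paqr8 (0.97), Vcl (0.97), Acat1 (0.97) and Serf2 (0.97). Without the 2 libraries farthest from the median of the score, r was 0.81 to 0.97 for these 10 genes. They were picked for the highest r over the same libraries, so this is no separate check. These values describe 7 libraries that share treatment, survival and scaling.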

How the data were processed

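Lung and liver RNA pools of newborn pups were sequenced as stranded mRNA libraries. The authors aligned reads to mouse GRCm38 with the OSA aligner, and the deposited values are raw estimated counts, 1 value for each gene symbol. The annotation release is not given in the sources used here. The study's submitters name R 4.0.3 and edgeR 3.30.3. The design assumed whole counts, and because 6.50 to 8.24% of values in a library were not whole, they were rounded first. Genes that averaged 1 CPM or more over the libraries of a fit were tested with edgeR 4.0.16 (TMM, glmQLFit and glmQLFTest, R 4.3.3), with Benjamini-Hochberg adjustment over all genes tested. DESeq2 1.42.0, other scalings and filters, and leaving out each library were alternatives, and intervals are 95% intervals. Pairwise folds used a prior count of 0.125 and a floor of 3 counts. Some of the fits were also run on simulated counts with a single spread for all genes. The biological coefficient of variation was larger in the fits by tissue label (0.966 for NAC in labelled lung, 0.888 for labelled lung against liver). The simulation therefore does not check those fits. Named genes are the 9 members, the genes of fixed lists that passed a test (at most 3 each way), 6 relatives and the 10 genes most like the members. Alb, Rn45s and the erythroid genes stand for composition, and Itm2c, Ctsh, Man1a2, Slc34a1, Slc34a3 and the remaining list genes named were added after their values were seen. The members and lists were chosen with earlier results of these data known. Other steps used Python 3.11.15, pandas 2.3.3 and scipy 1.17.1.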

Additional observations from a re-analysis of the deposited data

Results flagged for a closer look

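Among 18 sets of libraries examined (9 members in each content class), 2 held a library that stood apart from the rest of its set by Dixon's gap test, a test that flags about 1 set in 20 by chance. Sftpb had 3377 TMM-scaled CPM in the lung-content library labelled dead Het NAC liver, and the next highest of the 7 had 2170.4 CPM, a gap of 0.596 of the whole range. Sftpc had 3.10 raw CPM in the liver-content library labelled live Het NAC liver, from 46 counts, and the next highest of the 8 had 1.31 CPM, a gap of 0.589 of the range.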

How the results depend on the processing

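Of the members' differences recomputed under an alternative, 548 kept direction and side of the threshold, 25 became called, 4 lost the call and 31 changed sign, and those that changed sign were not called before or after. Those that became called were 13 for NAC in lung content, 5 for dead Het against live Het, 4 for dead Null against dead Het and 3 for dead against live. The cause was not tested where none is named.

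In the counts of genes called, DESeq2 gave 28 for NAC in the libraries labelled lung and 722 in those labelled liver, and among the lung-content libraries 151 for dead against live, 22 for dead Het against live Het, 6 for live Het against live WT, 217 for dead Null against dead Het and 68 for the interaction of NAC with survival. NAC in lung content gave 2313 calls without the pup group block and 958 with the mixed library. Dead against live gave 31 calls with DESeq2 size factors, 0 by library size alone, 179 without the filter on low counts, 1 with a filter at 10 CPM, 36 without Rn45s, 0 with status and treatment only, 23 with TMM over all 16 libraries and 0 with the mixed library. Without the filter, dead Het against live Het gave 13 calls, live Het against live WT 8, dead Null against dead Het 266 and the interaction 73. By library size alone these were 0 for dead Null against dead Het and 91 for the interaction.

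Leaving out 1 library at a time gave 1097 (without live Het placebo) to 4170 calls for NAC in lung content, with 1324 without live Het NAC, 1859 without live WT NAC and 1932 without live WT placebo. It gave 0 to 404 for dead against live, 0 to 313 for dead Het against live Het, 0 to 26 for live Het against live WT, 107 to 749 for dead Null against dead Het and 0 to 179 for the interaction, and the highest of each came without the dead Het placebo library. The labelled tissue in lung content gave 0 to 4170 calls, with 3963 and 4170 without either library of the dead Het pair, when treatment and labelled tissue are the same split. NAC gave 0 to 0 calls in the libraries labelled lung and 0 to 8455 in those labelled liver (8394 and 8455 without either dead Het library), and labelled lung against liver 0 to 0.

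Median levels moved by more than their spread for Sftpd in lung content (517 CPM with TMM over all 16 libraries, 858 CPM without Rn45s), and with TMM over all 16 for Abca3 in liver content (52.5 CPM) and Napsa in lung (332 CPM) and liver content (23.6 CPM).

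Log2 differences changed sign for NAC by library size alone in Sftpb (-0.20) and Napsa (-0.20) and in live pups alone in Sftpb (-0.33) and Napsa (-0.016). For dead against live, Sftpc was -0.040 by library size alone and Napsa 0.049 with status and treatment only. For dead Null against dead Het, Abca3 was -0.31 by library size alone and -0.025 with the filter at 10 CPM. Leaving out 1 library gave ranges across 0 for NAC in Sftpa1 (-0.78 to 0.094), Sftpb (-0.33 to 0.48), Lamp3 (-0.70 to 0.19) and Napsa (-0.017 to 0.19), and for dead against live in Sftpb (-0.049 to 0.77), Sftpc (-0.18 to 0.30), Napsa (-0.13 to 0.15) and Slc34a2 (-0.0060 to 0.64). For dead Het against live Het they were Sftpb (-0.18 to 1.08), Sftpc (-0.10 to 0.68), Napsa (-0.063 to 0.26), Abca3 (-0.026 to 0.76) and Lpcat1 (-0.055 to 0.48). For dead Null against dead Het they were Sftpb (-1.04 to 0.22) and Abca3 (-0.46 to 0.31), and for live Het against live WT Sftpa1 (-0.24 to 1.08). The labels give no replicate numbers, and NAC was paired with placebo by pup group except in the interaction fit and the fit without the block. Depth limits only members in liver content, where Lamp3 had at most 2 counts.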
